A study of Mus musculus with 6 samples.

Results

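Leukotrienes and prostaglandins are lipid mediators made from arachidonic acid. In the leukotriene branch, arachidonate 5-lipoxygenase (Alox5) acts together with its membrane partner FLAP (Alox5ap) to form the unstable epoxide leukotriene A4. Leukotriene A4 hydrolase (Lta4h) turns this epoxide into the neutrophil attractant leukotriene B4, whereas leukotriene C4 synthase (Ltc4s) joins it to glutathione and so starts the cysteinyl leukotrienes. In the prostaglandin branch, the cyclooxygenases Ptgs1 and Ptgs2 make prostaglandin H2, from which the hematopoietic synthase Hpgds makes prostaglandin D2. Neutrophils, monocytes, eosinophils and mast cells are the blood cells best known for these pathways.

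The genes described here are these 7, taken by name. Their members were all probe sets of the array table that carry one of these symbols and no other. There were 7 such probe sets of 28821, which covered 6 of the 13146 genes measured. Lta4h had 2 probe sets and the others 1 each, while Ptgs1 had none and was not analysed here. Expression was measured on Affymetrix Mouse430_2 arrays in Lin-/Sca1-/cKit+ cells, the sorted fraction that holds committed myeloid progenitors. The 3 leukemia samples were sorted from spleens of lethally irradiated MF1 mice that had received hematopoietic progenitors transduced with AE9a, a truncated form of the leukemia fusion protein AML1-ETO. The 3 wild-type samples were sorted from bone marrow of wild-type MF1 mice. All mice were 12 to 16 weeks old, and the design asks how the leukemic fraction differs from its normal counterpart. Each leukemia sample names 1 mouse. The labels of the wild-type samples do not say whether each is 1 mouse or a pool, so p-values measure the spread between these samples, which may be partly technical. Disease, organ, irradiation and transplantation change together between the groups and cannot be told apart, and the labels name no sort of transduced from host cells.

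The deposited values are array intensities on a linear scale, given here as log2 intensity. Median intensity per array ran from 71.6 to 79.9, and the small number of arrays, 6, bounds the precision. Arrays correlated at 0.969 to 0.978 within leukemia and at 0.992 to 0.994 within wild-type. Leukemia replicate 1 stood apart, with an array weight of 0.191 against 0.831 or more for the other 5. Leukemia replicates 2 and 3 shared a hybridization date in the run records, called a fluidics run here. Leukemia replicate 1 shared the other date with the wild-type arrays. Its 18S ribosomal RNA signal and Gapdh 3' minus 5' difference were the highest of the 6 arrays (12.35 and 0.31 log2), and as group means both were higher in leukemia, by 3.13 and 0.23. The difference in 18S was 2.74 without this array (11.25 and 11.14 in leukemia, 7.77 to 9.41 in wild-type), and that of Gapdh was 0.14. The 3' minus 5' difference of Actb was also highest on this array, at 0.70 against 0.31 to 0.50 on the other 5. As group means it differed by 0.03 between leukemia and wild-type, and by -0.10 without this array. Their part in the results was not tested. Changes of the tested members are also given without leukemia replicate 1. Kit, the sort marker, lay between the 86.2 and 94.0 percentile of each array with the brighter of its probe sets. This probe set was lower in leukemia (9.76, 9.80 and 9.34) than in wild-type (10.42, 10.42 and 10.35), without overlap, as for 57.1% of all probe sets tested. The other Kit probe set lay at the 48.7 to 70.3 percentile and overlapped (7.26, 7.92 and 7.71 against 7.80, 6.73 and 6.20).

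Alox5 is the gene on which the leukotriene result turns, and Lta4h lies at the next step and moved the other way, so the 250 bases before the start of each are shown. The sequences come from RefSeq on build GRCm38.p6. The Alox5 window is chr6:116461179-116461428 on the minus strand and the Lta4h window is chr10:93453146-93453395 on the plus strand, and both are printed 5′ to 3′ in the direction of transcription. Capitals mark matches, on either strand, to 4 short motifs, namely GATAA (GATA factors), GGGCGG (Sp factors), TGTGGT (Runx factors, whose DNA-binding domain is part of AML1-ETO) and GAGGAA (Ets factors). None of the marked matches overlap.
Alox5: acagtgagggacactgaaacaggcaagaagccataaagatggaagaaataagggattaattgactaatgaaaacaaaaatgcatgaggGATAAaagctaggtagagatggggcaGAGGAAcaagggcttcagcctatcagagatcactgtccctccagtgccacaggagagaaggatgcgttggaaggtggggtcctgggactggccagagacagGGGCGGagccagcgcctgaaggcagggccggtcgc
Lta4h: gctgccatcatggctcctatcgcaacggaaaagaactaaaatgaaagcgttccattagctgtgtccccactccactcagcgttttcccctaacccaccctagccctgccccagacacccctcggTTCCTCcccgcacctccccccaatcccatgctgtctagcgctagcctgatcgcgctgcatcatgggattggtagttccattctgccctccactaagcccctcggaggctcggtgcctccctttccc
The Alox5 window held 1 match each to the GATA, Sp and Ets motifs, whose first bases lie at -162, -35 and -136 from the start. The Lta4h window held 1 Ets match, on the opposite strand, at -126. Neither held the Runx motif, while the windows of Ltc4s, Ptgs2 and Hpgds held 1 match to it each. Among all 32851 such windows, 22.58% held the GATA, 32.74% the Sp, 14.05% the Runx and 23.25% the Ets motif. These matches describe letters and are not binding sites. Alox5ap is named without a promoter.

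Of the 6 measured genes, 4 were bright enough to be tested, which means that their signal reached the 40th percentile of the array's probe sets on 3 or more of the 6 arrays. Alox5 and Alox5ap were higher in leukemia and Lta4h was lower. Transcripts for the first step of leukotriene synthesis thus moved opposite to that for the step to leukotriene B4. Proteins and leukotrienes were not measured on these arrays. Ltc4s did not pass the test. The test was limma's, two-sided, with Benjamini-Hochberg adjustment over all 9715 genes tested and a threshold of 0.05. By the same test 42.1% of all genes passed, 16.9% higher and 25.2% lower, so 3 of 4 tested members is a count on a background in which passing is common.

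Alox5, the enzyme that starts leukotriene synthesis, was at 10.51, 11.60 and 10.41 log2 intensity in leukemia replicates 1, 2 and 3, against 7.001, 6.88 and 6.71 in wild-type replicates 1, 2 and 3. The groups did not overlap, which held for 59.2% of all genes tested, and leukemia replicate 2 was the highest array. Alox5 averaged 10.84 ± 0.66 in leukemia and 6.86 ± 0.15 in wild-type (SD, n = 3 each). The change was 3.98 ± 0.31 on the log2 scale (SE, 95% interval 3.25 to 4.71, limma adjusted p = 1.12e-04), or 15.8-fold. It was the 56th largest rise among the genes tested, and 0.566% of them rose more. In wild-type the probe set lay at the 54.5 to 58.5 percentile of its array and in leukemia at the 93.9 to 98.1 percentile, so it was above the dim range on all 6 arrays. Without leukemia replicate 1 the change was 4.14, and on that array alone, with the fluidics run as block, it was 3.65 (limma adjusted p = 2.86e-04 and 0.00105).

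Alox5ap, the membrane protein that presents arachidonic acid to 5-lipoxygenase, was at 12.05, 11.91 and 11.94 in leukemia against 10.84, 11.19 and 11.03 in wild-type (log2, replicates 1 to 3). The groups did not overlap, and the leukemia arrays lay closer together than the wild-type arrays. Mean levels were 11.97 ± 0.07 in leukemia and 11.02 ± 0.17 in wild-type (SD, n = 3 each). The change was 0.95 ± 0.10 (SE, 95% interval 0.72 to 1.17, limma adjusted p = 3.76e-04), or 1.93-fold. The probe set was among the brightest of its array in both groups, at the 98.6 to 98.8 percentile in leukemia and the 95.9 to 97.1 percentile in wild-type. The change was 0.90 without leukemia replicate 1 and 1.03 on that array alone with the fluidics run as block.

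**Figure D1:**
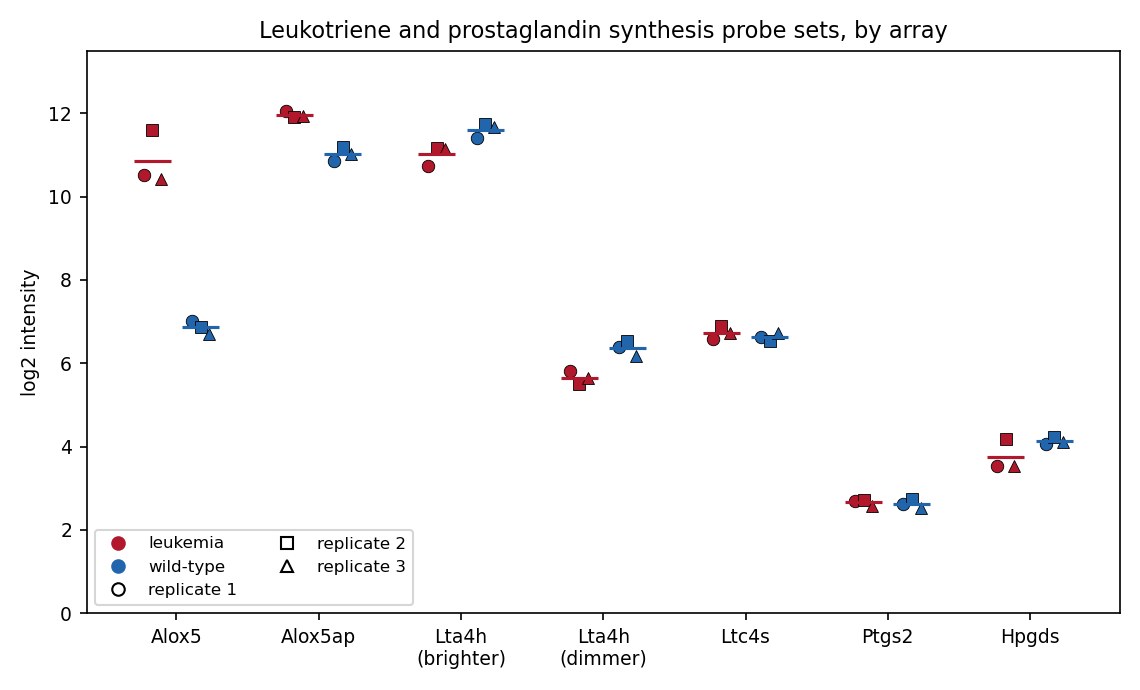
Log2 intensity (vertical axis) of the 7 probe sets, by array, with leukemia in red left of wild-type in blue, symbols for replicates and lines for group means. Alox5 is higher in leukemia by 3.98 and Alox5ap by 0.95, both Lta4h probe sets are lower, Ltc4s overlaps, and Ptgs2 and Hpgds lie at 4.24 or lower on every array.

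Lta4h, which makes leukotriene B4, was lower with both of its probe sets. The brighter one was at 10.72, 11.16 and 11.15 in leukemia against 11.41, 11.74 and 11.67 in wild-type (log2, replicates 1 to 3). All leukemia arrays were below all wild-type arrays, with leukemia replicate 1 the lowest. It averaged 11.01 ± 0.25 in leukemia and 11.60 ± 0.17 in wild-type (SD, n = 3 each), a change of -0.59 ± 0.14 (SE, 95% interval -0.93 to -0.26, limma adjusted p = 0.0151), or 1.51-fold lower. It was -0.45 without leukemia replicate 1 and -0.88 on that array alone with the run as block (limma adjusted p = 0.0131 and 0.00244). The dimmer one was at 5.81, 5.50 and 5.65 in leukemia against 6.38, 6.53 and 6.17 in wild-type, again without overlap, as for 57.1% of all probe sets tested. Its change was -0.71 ± 0.17 (SE, limma adjusted p = 0.0156 in a fit of 16327 probe sets, of which 39.1% passed, 21.4% as lower), and it was -0.79 without leukemia replicate 1. Lta4h is thus lower by both measurements, at 95.4 to 97.0 percentiles of the leukemia arrays and 97.7 to 98.4 of the wild-type arrays with the brighter one. The call of the brighter probe set was lost without wild-type replicate 2 (-0.53, limma adjusted p = 0.0626) or replicate 3 (-0.56, 0.0620). That of the dimmer one was lost without wild-type replicate 1 (-0.70, limma adjusted p = 0.0526) or replicate 2 (-0.62, 0.0667), and in the fit with the fluidics run as block (-0.55, 0.0709).

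Ltc4s, the enzyme that makes leukotriene C4, was at 6.59, 6.88 and 6.71 in leukemia against 6.62, 6.52 and 6.73 in wild-type (log2, replicates 1 to 3). The groups overlapped. The change was 0.10 ± 0.15 (SE, limma adjusted p = 0.601), and its 95% interval ran from -0.25 to 0.46. It was 0.17 without leukemia replicate 1 and -0.03 in the fit with the fluidics run as block. The signal lay at the 53.0 to 57.4 percentile on the 6 arrays.

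The prostaglandin members measured, Ptgs2 and Hpgds, were dim on all 6 arrays and were not tested with limma. Ptgs1 was not measured, and other prostaglandin and thromboxane synthases, which were tested, are given below. Ptgs2, the inducible cyclooxygenase, was at 2.69, 2.71 and 2.57 in leukemia against 2.62, 2.75 and 2.52 in wild-type, within the lowest 3.22% of each array. The difference was 0.03 (exact permutation p = 0.7, two-sided, n = 3 each). Hpgds, the prostaglandin D2 synthase of blood cells, was at 3.53, 4.18 and 3.54 in leukemia against 4.07, 4.24 and 4.10 in wild-type. Leukemia replicate 2 lay among the wild-type arrays and the other leukemia arrays below them. The difference was -0.39 (exact permutation p = 0.3, two-sided, n = 3 each). Both probe sets lay below the 40th percentile of every array, and no call is made for them.

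**Figure D2:**
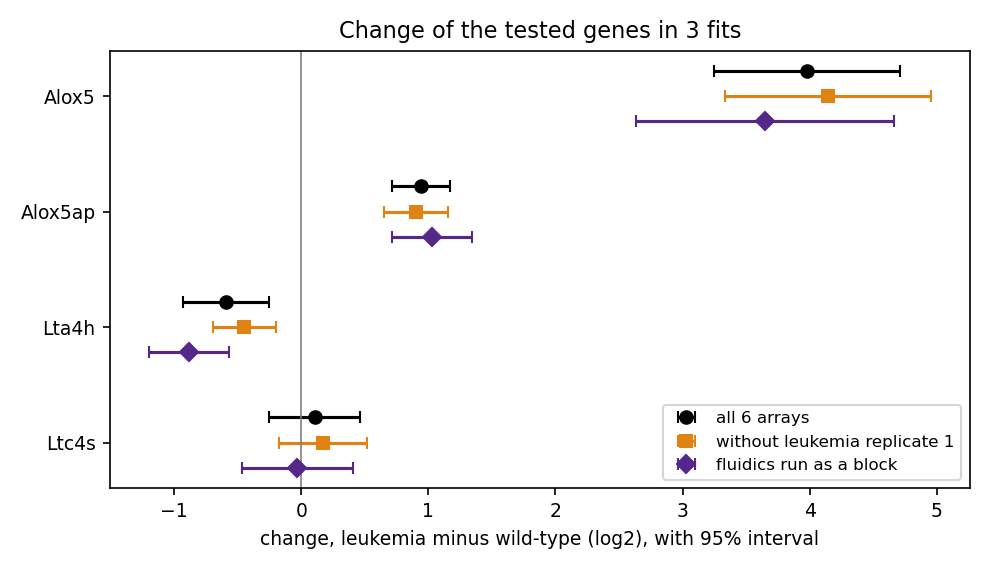
Change of the 4 tested genes (horizontal axis, leukemia minus wild-type, log2) with its 95% interval from limma, for all 6 arrays, without leukemia replicate 1 and with the fluidics run as block. Intervals of Alox5, Alox5ap and Lta4h stay on one side of 0 in all 3 fits, and those of Ltc4s span it.

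Marker genes of the blood cells known for these pathways were read beside the members. In such bulk samples, fewer cells of a type and less RNA per cell cannot be told apart. Of 9 tested mast cell and basophil genes 6 were higher and 1 lower, with a median change of 2.77. Beside this and the counts below, 16.9% of all genes tested were higher and 25.2% lower. Their summed intensity was 13693 to 26411 on the leukemia arrays and 4549 to 5062 on the wild-type arrays. All 12 listed genes were measured, and 2 lay below the 40th percentile on every leukemia array and 5 on every wild-type array. The 6 that rose were Cd200r3 (5.72), Il4 (4.48), the mast cell protease Cma1 (4.09), Hdc, which makes histamine (2.85), and the IgE receptor chains Ms4a2 (2.77) and Fcer1a (2.29), while the basophil protease Mcpt8 fell by 5.67. Cd200r3 and Il4 reached the 40th percentile only on leukemia arrays and Mcpt8 only on wild-type arrays, so each entered the test through 1 group. Cpa3 and Mitf did not pass (0.17 and 1.71), and Mcpt4, Tpsb2 and Tpsab1 were dim. Of 6 tested erythroid genes 4 were higher and 0 lower (median 2.09, summed intensity 3921 to 6271 in leukemia and 2645 to 4658 in wild-type). Alas2 and Slc4a1, among those higher, reached the 40th percentile only on leukemia arrays and entered the test through them. Of 7 megakaryocyte and platelet genes 2 were higher and 5 lower (median -2.25, sums 914 to 1830 in leukemia and 2018 to 2243 in wild-type). Ppbp and Vwf, among those lower, reached it only on wild-type arrays. Most tested markers of monocytes and eosinophils were lower. Of 9 tested monocyte and macrophage genes 8 were lower and 0 higher, with a summed intensity of 309 to 473 on the leukemia arrays and 7387 to 12351 on the wild-type arrays. Of the 10 measured, 8 lay below the 40th percentile on every leukemia array and 1 on every wild-type array. Most of those tested thus entered the test only through the wild-type arrays. Of 3 eosinophil genes 2, Prg2 and Epx, were lower, and these reached the 40th percentile only on wild-type arrays (sums 159 to 353 in leukemia and 1257 to 2439 in wild-type). All 6 measured neutrophil genes lay below the 40th percentile on every leukemia array (sums 117 to 124, against 165 to 700 in wild-type). The part of these cell types in the changes of Alox5, Alox5ap and Lta4h was not tested. Without leukemia replicate 1 the mast cell and basophil counts were 7 higher and 1 lower, and those of the eosinophil list 0 and 3.

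The pathway around the members was read from 8 lists of genes that hold no member. Of 89 listed genes 57 were measured and 39 tested, of which 10 were higher, 12 lower and 17 did not pass. The median change was -0.03, beside -0.09 over all genes tested, and 56.4% changed where 42.1% of all genes did. Without leukemia replicate 1, 13 were higher and 12 lower, and of the 22 genes that passed with all arrays, all named below, 21 still passed. Prxl2b did not. Of the further probe sets of the named genes, 15 of 15 had the same sign of change as the brightest.

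Upstream of Alox5, genes for the release and supply of arachidonic acid passed at shares of 33.3% (1 of 3) and 45.5% (5 of 11), near the 42.1% of all genes. Of the 3 tested phospholipases A2, which free the fatty acid from membranes, Pla2g12a was higher by 1.36 (limma adjusted p = 0.00504). Pla2g4a, the cytosolic enzyme that prefers arachidonic acid, was at 8.43, 8.30 and 8.88 in leukemia against 8.13, 8.27 and 8.17 in wild-type and did not pass (change 0.35, limma adjusted p = 0.144). Another 6 phospholipases were dim. Of the 11 tested genes that make arachidonic acid or return it to phospholipids 2 were higher and 3 lower (median 0.14). Acsl4, the acyl-CoA synthetase that prefers arachidonic acid, rose by 1.34 and Lpcat3, which puts it back into phospholipids, rose by 0.95. Fads2, the desaturase that begins arachidonic acid synthesis, fell by 4.10 (or by 2.42 with the mean of its probe sets). It reached the 40th percentile on only 1 leukemia array. Its change was -3.28 with 16 added to each intensity before the log. The synthetase Acsl3 fell by 3.67 and Lpcat2, an enzyme of platelet-activating factor synthesis, fell by 1.96. Both were dim on every leukemia array, and their changes were -2.49 and -1.34 with 16 added to each intensity before the log. Their further probe sets were dim and differed less (-1.85 and -0.79 for Acsl3, -0.49 for Lpcat2). Without leukemia replicate 1 this list gave 4 higher and 4 lower, since Elovl5 (-0.43), Acsl5 (0.55) and Lpcat1 (0.48) then passed.

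The proteins that act on 5-lipoxygenase did not move together. Cotl1, a coactosin-like protein that binds the enzyme, rose by 0.52 (limma adjusted p = 0.0315). Mapkapk2 and Mapkapk3, kinases able to phosphorylate it, fell by 3.02 and 1.05. The call of Cotl1 was lost without leukemia replicate 3 (0.53, limma adjusted p = 0.0627) and without wild-type replicate 1 (0.46, 0.108) or 3 (0.50, 0.105). The other lipoxygenases measured, Alox12, Alox15 and Aloxe3, were all dim, with differences of -0.004, -0.11 and -0.03.

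**Figure D3:**
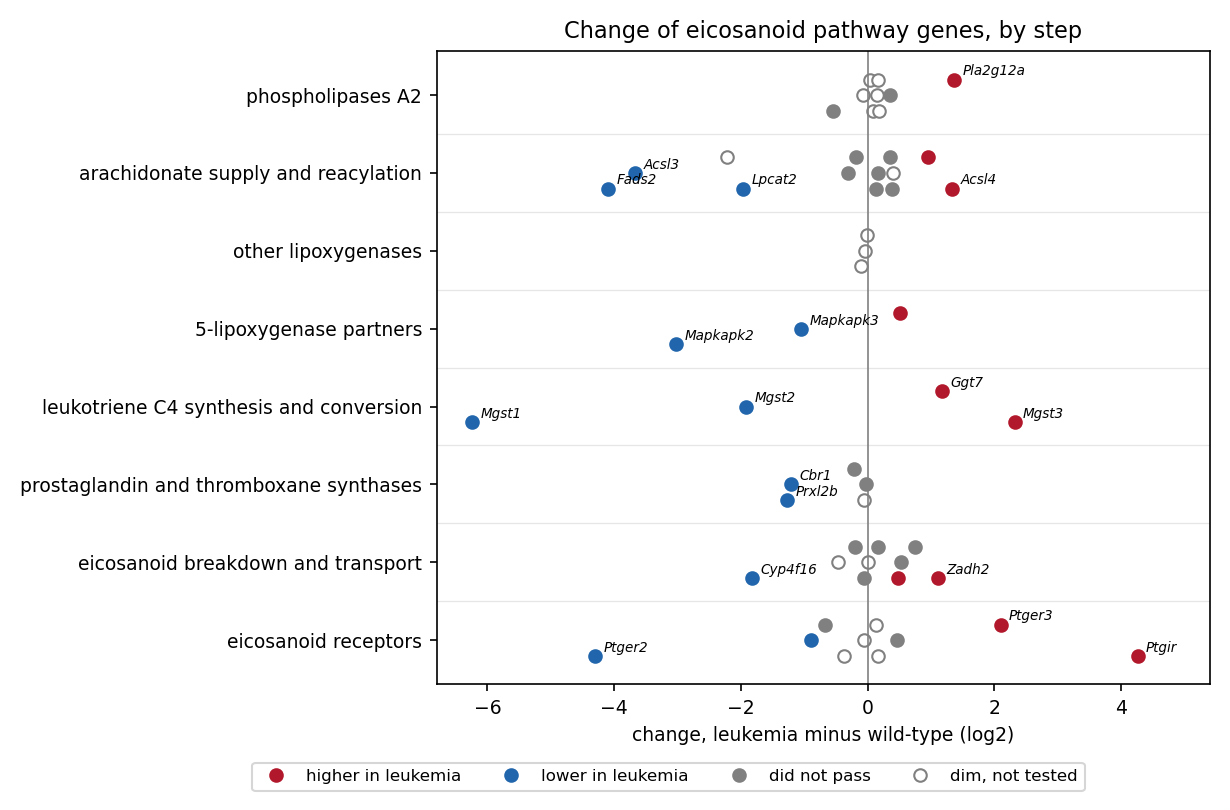
Change of the 57 measured pathway genes (horizontal axis, leukemia minus wild-type, log2) in 8 lists from arachidonic acid release to receptors, coloured by limma's call, with open circles for dim genes. Changes run from -6.24 (Mgst1) to 4.26 (Ptgir), and lists with more than 1 changed gene, except the synthases, hold both directions.

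Downstream, all 4 tested genes of leukotriene C4 synthesis and conversion passed, 2 higher and 2 lower, where 42.1% of all genes passed. Mgst1 and Mgst2 reached the 40th percentile only on wild-type arrays and Ggt7 only on leukemia arrays. They entered the test through the group where they were high, so this count carries little weight. Of 10 listed genes 4 were measured, and Ggt1, Ggt5, Ggt6, Dpep1, Dpep2 and Dpep3 were not. Mgst3, a membrane glutathione transferase of the protein family that includes Alox5ap and Ltc4s, was at 10.72, 10.51 and 11.32 in leukemia against 8.58, 8.31 and 8.71 in wild-type, a change of 2.32 (limma adjusted p = 2.74e-04). Mgst2, which can make leukotriene C4, was at 4.94, 4.69 and 4.61 in leukemia against 6.22, 7.16 and 6.61 in wild-type, a change of -1.92 (limma adjusted p = 0.00137). Mgst1 of the same family fell by 6.24, the largest fall of the pathway genes, and had a mean of 3.04 in leukemia against 9.29 in wild-type. With 16 added to each intensity before the log its change was -4.72. Ggt7, of the gamma-glutamyltransferase family, rose by 1.18, which no longer passed without wild-type replicate 3 (1.07, limma adjusted p = 0.0559). The family around Ltc4s thus changed at Alox5ap, Mgst1, Mgst2 and Mgst3, whereas Ltc4s itself did not pass.

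Of 4 tested prostaglandin and thromboxane synthases 2 were lower and 0 higher (median -0.71). This share of 50% lies near the 42.1% of all genes that passed, of which 25.2% were lower and 16.9% higher as shares of all genes tested. Cbr1, a carbonyl reductase that acts on prostaglandins, fell by 1.21 and Prxl2b, a prostaglandin F synthase, fell by 1.27. The thromboxane synthase Tbxas1 was at 7.87, 8.15 and 6.51 in leukemia against 7.58, 7.56 and 7.47 in wild-type and did not pass (change -0.03, limma adjusted p = 0.963). The call of Cbr1 was lost without wild-type replicate 1, 2 or 3 (-1.18, -1.30 and -1.15, limma adjusted p = 0.0678, 0.0508 and 0.0752), and its change was -1.97 with the fluidics run as block. That of Prxl2b was lost without leukemia replicate 1 or 3 (-1.09 and -1.01, limma adjusted p = 0.0722 and 0.0775) and without wild-type replicate 1, 2 or 3 (-1.39, -1.21 and -1.22, 0.0673, 0.105 and 0.106).

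Of 8 tested genes of breakdown and transport 2 were higher and 1 lower (median 0.32), or 37.5% beside 42.1% of all genes. Zadh2, a prostaglandin reductase, rose by 1.11 and Abcc1, which exports leukotriene C4, rose by 0.48. Cyp4f16, of a cytochrome family whose members include leukotriene B4 hydroxylases, fell by 1.83. It reached the 40th percentile only on wild-type arrays and entered the test through them. The call of Abcc1 was lost without wild-type replicate 1 or 3 (0.43 and 0.45, limma adjusted p = 0.0694 and 0.0723) and with the mean of its probe sets (0.35, 0.122).

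Receptor genes changed in both directions, 2 higher and 2 lower of 6 tested (median -0.10), or 66.7% beside 42.1% of all genes. Ptger2 reached the 40th percentile only on wild-type arrays and Ptgir only on leukemia arrays. Each entered the test through the group where it was high, so this count carries little weight. Ptgir, the prostacyclin receptor, was at 8.04, 9.04 and 9.11 in leukemia against 4.62, 4.38 and 4.41 in wild-type, a change of 4.26 ± 0.30 (SE, limma adjusted p = 7.09e-05). It was dim on every wild-type array. Ptger3, a prostaglandin E2 receptor, was at 9.70, 10.51 and 8.12 in leukemia against 7.02, 7.52 and 7.49 in wild-type, a change of 2.10 (limma adjusted p = 0.0218). Its leukemia arrays were widely spread but all above the wild-type arrays. Ptger2, another prostaglandin E2 receptor, was at 2.75, 2.77 and 2.37 in leukemia against 6.47, 7.28 and 7.03 in wild-type, a change of -4.30 (limma adjusted p = 3.14e-05), or -2.63 with 16 added to each intensity before the log. The thromboxane receptor gene Tbxa2r fell by 0.89. The leukotriene B4 receptor Ltb4r1 was at 6.67, 7.52 and 6.87 in leukemia against 7.48, 7.95 and 7.65 in wild-type and did not pass (change -0.67, limma adjusted p = 0.0683). Cysltr1, a receptor of cysteinyl leukotrienes, was dim on all 6 arrays. The call of Ptger3 was lost without wild-type replicate 1, 2 or 3 (1.94, 2.19 and 2.17, limma adjusted p = 0.0765, 0.0613 and 0.0630) and with the fluidics run as block (2.36, 0.0520). Ptger4 passed without leukemia replicate 1 (0.77, limma adjusted p = 0.00106).

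**Figure D4:**
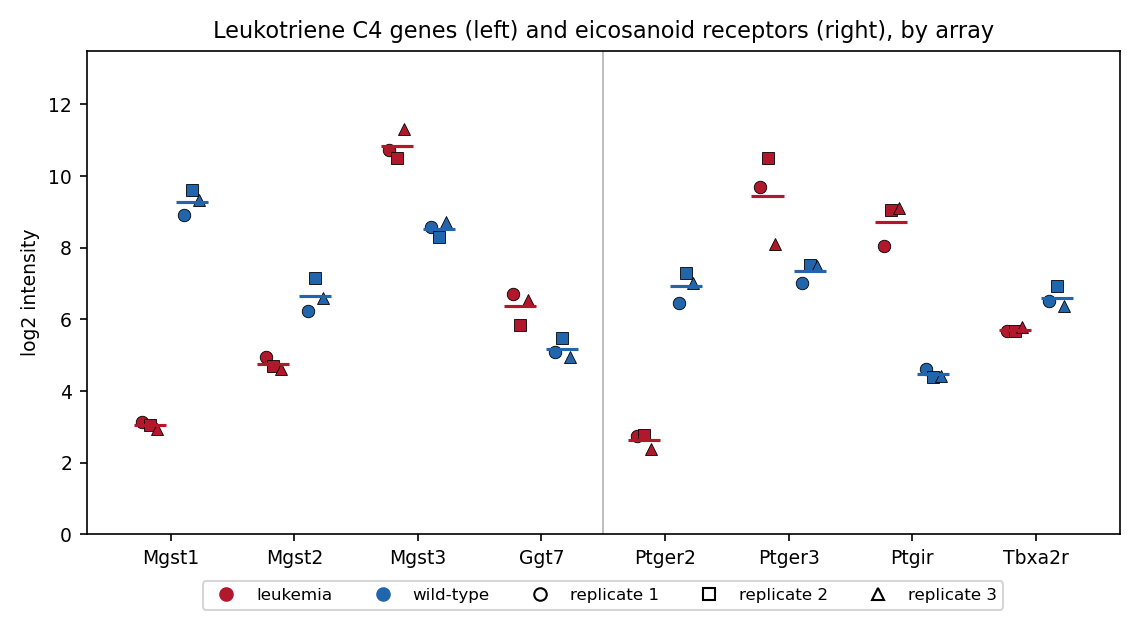
Log2 intensity (vertical axis), by array, of the changed genes of leukotriene C4 synthesis and conversion (left) and of the eicosanoid receptors (right), with leukemia in red left of wild-type in blue and lines for group means. The 8 genes are shown because they passed the test, and Ptger3 has the widest leukemia spread (SD 1.22).

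The genes whose profile over the 6 arrays was most like that of each tested member were found by the root mean square difference of log2 values after each gene's own mean was subtracted. For Alox5 these were the zinc transporter gene Slc30a2 (difference 0.25, change 4.25) and the homeobox gene Meis2 (0.30, 4.31), both of which were highest on leukemia replicate 2, as Alox5 was. For Alox5ap they were Hsd17b7, an enzyme of cholesterol synthesis (0.05, 0.96), and the alpha globin gene Hba-a2 (0.06, 0.86), whose near-identical copy makes its signal uncertain. Lta4h was closest to Hcls1 (0.04, -0.65) and Nr2f6 (0.05, -0.56). Ltc4s was closest to Pam16 (0.02, 0.08) and Tsr3 (0.04, 0.09). With 2 groups of 3 arrays such likeness mainly reflects the size of the group difference.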

How the data were processed

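Intensity values on a linear scale (3.31 to 18869) were deposited for 28821 probe sets. Per the submitters' processing notes they were made with RMA, with no version named there. Each array used 200 ng of total RNA per the labels. Of the probe sets, 23750 carried 1 gene symbol in the platform annotation, and the probe set with the highest mean stood for its gene. Log2 was taken without a pseudocount. Genes that reached the 40th percentile of an array's probe sets on 3 or more arrays (9715) were tested, and 3431 were left out as dim. Leukemia was compared with wild-type in limma 3.58.1 under R 4.3.3 (lmFit and eBayes, intensity trend, no covariate), and further probe sets in the same fit over all 16327 bright probe sets. The procedure was tested on simulated data. Exact permutation tests (scipy 1.17.1) served for single values. Arrays with the same hybridization date entry in the run records were grouped as 1 fluidics run, a name given here (2 runs, 1 chip lot). The members and gene lists were chosen with earlier results of these data known. Named were all member probe sets and, of each list, up to 3 changed genes per direction, while marker genes, dim genes, Pla2g4a, Tbxas1, Ltb4r1, Cysltr1, the other lipoxygenases and genes that passed without leukemia replicate 1 were named after their values were seen. Replicate numbers did not pair the arrays: same-numbered arrays correlated at -0.07, 0.05 and 0.03 in their deviations from the group means.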

Additional observations from a re-analysis of the deposited data

How the results depend on the processing

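The changes of Alox5, Alox5ap, Lta4h and Ltc4s kept their direction under the filters, scalings, probe set rules, variance settings, array weights and blocks tried, except that Ltc4s, which did not pass in any fit, was at -0.03 with the fluidics run as a block and was left out by the 60th percentile filter. Leaving out 1 array at a time gave 3.60 to 4.19 for Alox5, 0.86 to 1.03 for Alox5ap, -0.69 to -0.45 for Lta4h and 0.03 to 0.17 for Ltc4s. Lta4h lost its call without wild-type replicate 2 (-0.53) or 3 (-0.56). Ptgs2 ran from -0.02 to 0.09 and Hpgds from -0.60 to -0.28, both dim. With the replicate block Alox5 (3.98), Alox5ap (0.95) and Lta4h (-0.59) kept their calls (limma adjusted p = 6.56e-04, 0.00318 and 0.00387), 3565 genes changed, and of the named genes Cotl1 lost its call (0.52, limma adjusted p = 0.0763). The count of changed genes (4089) was 2647 to 4716, that of probe sets (6382) 4022 to 7423 and that of pathway genes (22) 16 to 25 when 1 array was left out. With the 60th percentile filter 28 pathway genes were tested and 14 changed, 9 higher and 5 lower, beside 10 and 12 in the main fit. The changed genes it left out were Acsl3, Lpcat2, Mgst2, Cyp4f16, Ptger2, Prxl2b and Tbxa2r, all lower, and Ggt7, which was higher. Acsl3, Lpcat2, Mgst2, Cyp4f16 and Ptger2 reached the 40th percentile only on wild-type arrays and Ggt7 only on leukemia arrays. The balance of rises and falls thus depends on the filter. Of 377 values of named pathway genes and the dimmer Lta4h probe set under these alternatives, 354 stayed on their side of the threshold, and none changed sign. Signal near background limits Ptgs2, Hpgds and 18 other pathway genes, for which no call was made. Alternatives for Ptgs1 were not run.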

Other observations

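Of the 18 dim pathway genes, 4 had groups that did not overlap, beside 32.7% of all dim genes. Acsl6, an acyl-CoA synthetase, was at 3.37, 3.66 and 3.56 log2 in leukemia against 6.12, 4.39 and 6.74 in wild-type (difference -2.22). Hpgd, which inactivates prostaglandins, was at 3.22, 3.23 and 3.07 in leukemia against 3.56, 3.59 and 3.76 in wild-type (-0.47). The receptor gene Cysltr1 was at 2.62, 2.71 and 2.88 in leukemia against 3.21, 3.23 and 2.90 in wild-type (-0.38). Ptgdr, a prostaglandin D2 receptor, differed the other way, at 4.97, 4.93 and 5.11 in leukemia against 4.82, 4.79 and 4.91 in wild-type (0.17).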
